A study of Mus musculus with 14 samples.

Results

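The 10 genes described here, which mark alternatively activated macrophages, were followed through 3 cell populations sorted from the mouse lung, before and after bleomycin injury. The members are Arg1, Gpnmb, Trem2, Chil3, Retnla, Mrc1, Ccl24, Ccl17, Ms4a7 and Fabp5. All probes assigned to these symbols in the array annotation were taken, 20 of the 45281 probes on the array, and all 10 genes kept a probe after the filter on low signal, 10 of the 12444 genes tested. The list was chosen on values of these same arrays, namely the change after bleomycin in the sorted populations. Member values are therefore given as a description without p-values, and counts of members past the call rule are printed beside the share of all genes only for orientation.

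Macrophages exposed to the type 2 cytokines IL-4 and IL-13 signal through the transcription factor STAT6 and take up a state known as alternative activation. In mice this state is recognised by the arginine-splitting enzyme arginase, by secreted chitinase-like and resistin-like proteins, by the mannose receptor and by chemokines that call in eosinophils and T cells. Macrophages of injured and fibrotic lung also express the lipid receptor Trem2, the fatty acid carrier Fabp5 and the membrane glycoprotein Gpnmb.

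Expression was read from 14 bead arrays of the Illumina MouseWG-6 v2.0 design, each hybridised with RNA of 1 sample. The mice carried Foxd1-Cre with a Rosa26-tdTomato reporter, which marks cells whose ancestors expressed Foxd1, together with Coll-GFP, a collagen promoter reporter. Peri cells bore tdTomato without GFP, PeriFibro cells bore both and Fibro cells bore GFP alone. Bleomycin was given into the trachea at 0.8 U/kg and lungs were taken at day 7, while uninjured mice received saline by the same route. Each uninjured population had 2 arrays. After bleomycin Peri had 2 arrays, and PeriFibro and Fibro had 3 each. The labels give female for every uninjured array and male for every bleomycin array, so injury and sex cannot be told apart in any bleomycin difference below. The labels do not say whether arrays of a group came from separate mice, and the p-values measure only the spread between these arrays. The study's methods put its mice in the young adult range, and the labels give no age for single arrays.

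Between 39.38% and 44.36% of probes were detected per array, at a detection p-value under 0.05. The labelled cell types were checked against marker lists, whose summed level is given on a log2 scale. Pericyte markers summed to between 8.08 and 8.35 in uninjured Peri and between 9.22 and 10.93 in uninjured PeriFibro, and Peri arrays detected 5 to 7 of the 8 markers, Rgs5 not among them. Pan-leukocyte genes ran the other way, with sums of 15.75 and 15.80 in uninjured Peri and of 12.98 and 13.71 in uninjured PeriFibro. The arrays labelled Peri thus had lower pericyte and higher leukocyte signal than those labelled PeriFibro, and the names Peri, PeriFibro and Fibro are used here for the sort gates only. Alveolar type 2 cell genes summed to between 15.20 and 15.46 in uninjured Fibro and to between 12.43 and 12.68 in bleomycin Fibro. In a sorted bulk sample, fewer macrophages and less RNA per macrophage cannot be told apart. In earlier results of these data, 3 arrays were set apart from their groups, in part through Ms4a7 and Trem2, and are called below the arrays that stand apart. These were PeriFibro bleomycin replicate 3 and, in Fibro, replicate 2 of both the uninjured and the bleomycin arrays, and counts are also given without them. Uninjured Fibro holds only 2 arrays, so its values cannot say which of the 2 departs from the group.

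Promoter stretches of 4 members are shown because they hold a motif of STAT proteins, the family through which IL-4 and IL-13 act. RefSeq windows from 250 bases before to 50 bases after the annotated start (GRCm38.p6) matched 7 of the 10 members. They are written 5′ to 3′ on the strand of the gene, and capitals mark TTC and GAA separated by any 4 bases in Retnla, Ccl17 and Ms4a7, TTGCNNAA as the second motif of Retnla, and TTC and GAA separated by any 3 bases in Chil3.
Retnla, chr16:48842449-48842497, plus strand: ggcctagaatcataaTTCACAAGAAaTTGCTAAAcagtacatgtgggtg
Ccl17, chr8:94810284-94810323, plus strand: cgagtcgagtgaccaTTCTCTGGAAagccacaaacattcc
Ms4a7, chr19:11336147-11336174, minus strand: tgtaatcacgagtacTTCCGGGGAAagc
Chil3, chr3:106167713-106167751, minus strand: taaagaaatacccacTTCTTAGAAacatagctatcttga

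The spacing of 4 bases, preferred by STAT6, lay 145 bases before the start of Retnla, 154 bases before that of Ccl17 and 13 bases before that of Ms4a7. It was present in 6.95% of all 32851 promoter windows. The spacing of 3 bases, used by other STAT proteins, lay 172 bases before the start of Chil3 and 99 bases before that of Ccl17, against 8.30% of all windows. TTGCNNAA, a C/EBP motif, was found in Retnla and Trem2 (10.8% of windows), and GAGGAA, the core of a PU.1 site, in 5 of the 8 member windows (28.3% of windows). Both strands were searched, and none of these motifs overlapped another within a member. A match describes the letters in the window and is not evidence of binding.

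Of the members, 5 had more than 1 probe, and probes of a gene differed in how far they could be read. The 2 probes of Arg1 moved together over the 14 arrays (r = 0.983). The 3 probes of Chil3 were detected on all 14 arrays, with r from 0.773 to 0.949. Gpnmb rested on ILMN_2648669, which was detected on 14 arrays, whereas its other 3 probes were detected on 5, 8 and 2 arrays and correlated with it at 0.611 to 0.666. Ms4a7 was read by ILMN_3091003 on 14 arrays and by ILMN_3019158 on 5 arrays (r = 0.875), and its remaining probes were detected on 0 arrays. Fabp5 was read by ILMN_1235908 on 12 arrays, and its other probe was detected on 0. The other members had a single probe. Each gene is described below by its probe of highest mean signal, and the correlations over arrays share groups and are descriptions.

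**Figure D1:**
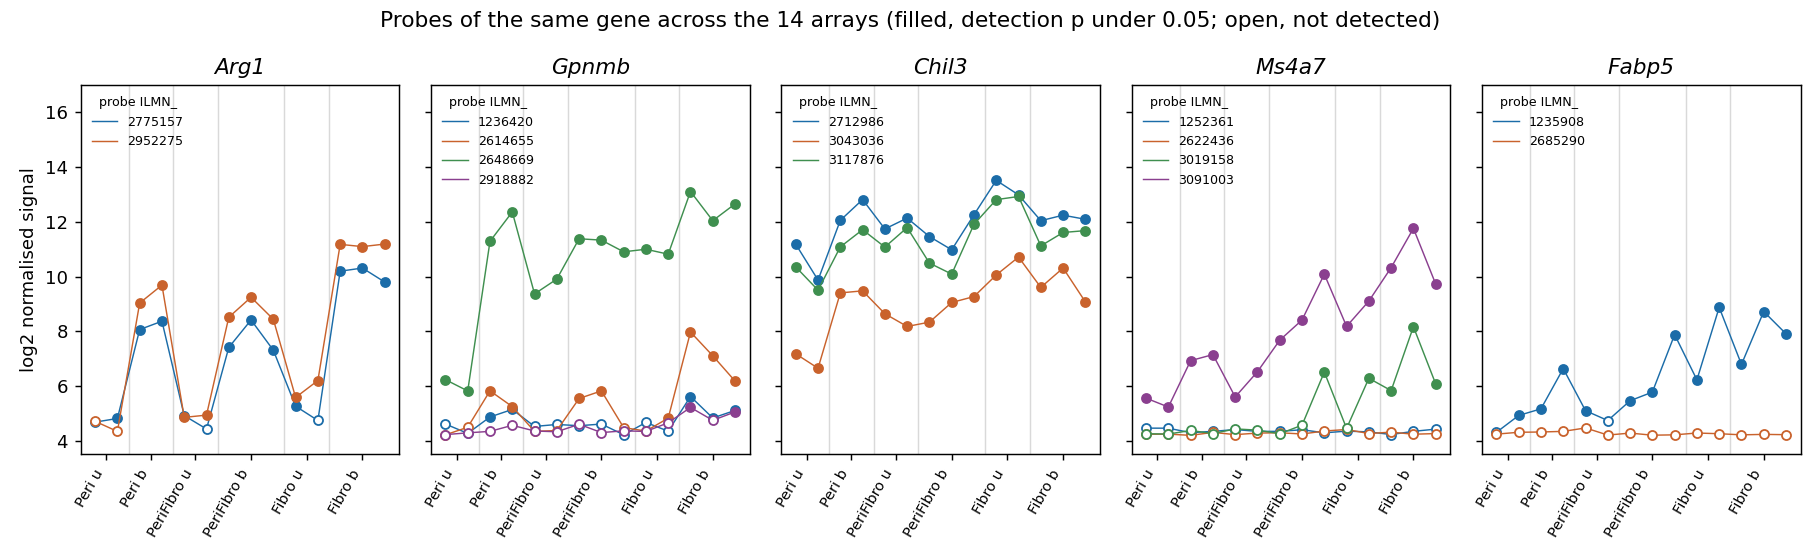
Log2 normalised signal (y axis) of every probe of the 5 members with more than 1 probe, on the 14 arrays ordered by group (x axis; u, uninjured; b, bleomycin day 7), with filled points for detected probes. The probes of Arg1 run in parallel (r = 0.983) and those of Chil3 less closely (r from 0.773 to 0.949), whereas 1 probe of Gpnmb, Ms4a7 and Fabp5 carries nearly all of the signal.

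Arg1 encodes arginase, the cytosolic enzyme that splits arginine into ornithine and urea. Its log2 normalised signal, called the level from here on, was 4.71 and 4.34 on the uninjured Peri arrays, 4.86 and 4.94 in PeriFibro, and 5.58 and 6.20 in Fibro. At day 7 it was 9.03 and 9.69 in Peri, 8.51, 9.24 and 8.44 in PeriFibro, and 11.18, 11.09 and 11.19 in Fibro. Every bleomycin array lay above every uninjured array in all 3 populations. The log2 difference from uninjured was 3.84 ± 0.30 (SE of the fit) in PeriFibro and 5.26 ± 0.30 in Fibro. In Peri the probe was below background on both uninjured arrays, so the difference was a bound, at least 23.9-fold higher with the normalisation used here. On the log2 values deposited by the authors the Peri difference was only 1.584. The second probe of Arg1, ILMN_2775157, gave log2 differences of 3.47 in Peri, 3.03 in PeriFibro and 5.10 in Fibro.

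Chil3 encodes a secreted chitinase-like protein made in quantity by mouse alveolar and alternatively activated macrophages. Its level was 11.18 and 9.87 in uninjured Peri, 11.74 and 12.14 in PeriFibro, and 13.51 and 12.98 in Fibro. After bleomycin it was 12.05 and 12.81 in Peri, 11.46, 10.98 and 12.26 in PeriFibro, and 12.04, 12.24 and 12.09 in Fibro. The Peri arrays lay higher after bleomycin (log2 difference 1.91 ± 0.48), the PeriFibro arrays overlapped (−0.37 ± 0.44) and the Fibro arrays lay lower (−1.12 ± 0.44). The other probes gave 2.53 and 1.47 in Peri and −0.72 and −1.40 in Fibro, but differed in sign in PeriFibro, at 0.48 for ILMN_3043036 and −0.60 for ILMN_3117876. Chil4, a near-identical paralog, followed Chil3 over the 14 arrays (r = 0.979), so signal cannot be assigned to either gene with certainty.

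Retnla, a secreted resistin-like protein induced by IL-4 and IL-13, had the largest SE of the members, 0.93 to 1.01 for the bleomycin differences. Its level was 4.93 and 6.43 in uninjured Peri, 8.87 and 11.58 in PeriFibro, and 9.99 and 10.17 in Fibro. After bleomycin the arrays read 7.57 and 9.53 in Peri, 8.52, 9.22 and 9.64 in PeriFibro, and 9.54, 11.71 and 12.18 in Fibro. Peri was higher after bleomycin with no overlap (log2 difference 2.87 ± 1.01), whereas the groups overlapped in PeriFibro (−1.10 ± 0.93) and Fibro (1.06 ± 0.93).

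Among the receptors and membrane proteins, Gpnmb, a glycoprotein of lipid-laden macrophages, differed most in Peri. Its level was 6.23 and 5.82 in uninjured Peri, 9.37 and 9.91 in PeriFibro, and 11.00 and 10.82 in Fibro. On the bleomycin arrays it was 11.29 and 12.36 in Peri, 11.38, 11.33 and 10.90 in PeriFibro, and 13.11, 12.04 and 12.65 in Fibro. The log2 difference was 5.80 ± 0.41 in Peri, 1.57 ± 0.37 in PeriFibro and 1.69 ± 0.37 in Fibro, with no overlap in any population. Its other probes were not detected in uninjured Peri. Their uninjured and bleomycin Peri means were 4.44 and 5.01 (ILMN_1236420), 4.36 and 5.54 (ILMN_2614655), and 4.26 and 4.46 (ILMN_2918882). Over the other processing settings the Peri difference of Gpnmb was as low as 1.935. At day 7 the Peri arrays had reached the range of PeriFibro, from which they were far apart in uninjured mice.

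Trem2, a receptor for lipids on macrophages, was detected on every array through its single probe. Its level was 7.71 and 7.30 in uninjured Peri, 5.66 and 6.54 in PeriFibro, and 8.25 and 9.23 in Fibro. At day 7 it was 8.46 and 9.35 in Peri, 8.52, 9.38 and 10.40 in PeriFibro, and 10.87, 12.04 and 10.89 in Fibro. The groups did not overlap in any population, with log2 differences of 1.40 ± 0.62, 3.34 ± 0.57 and 2.53 ± 0.57 in Peri, PeriFibro and Fibro. Trem2 was the only member whose uninjured Peri arrays both lay above both uninjured PeriFibro arrays.

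Mrc1, the macrophage mannose receptor, behaved differently from these. Its level was 6.06 and 4.50 in uninjured Peri, the second array being below background, 9.01 and 9.50 in PeriFibro, and 10.94 and 10.79 in Fibro. After bleomycin the arrays read 7.32 and 10.06 in Peri, 9.53, 9.90 and 8.41 in PeriFibro, and 9.64, 10.78 and 9.98 in Fibro. The log2 difference was 3.41 ± 0.80 in Peri, 0.03 ± 0.73 in PeriFibro and −0.73 ± 0.73 in Fibro, where the highest bleomycin array (10.78) all but touched the lowest uninjured array (10.79).

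Ms4a7, a membrane protein used as a marker of monocyte-derived macrophages, was lowest in uninjured Peri at 5.56 and 5.23. It was 5.60 and 6.53 in uninjured PeriFibro and 8.18 and 9.10 in uninjured Fibro. On the bleomycin arrays it was 6.93 and 7.15 in Peri, 7.68, 8.41 and 10.09 in PeriFibro, and 10.33, 11.76 and 9.73 in Fibro. The bleomycin arrays lay above the uninjured arrays in every population, by log2 differences of 1.64 ± 0.76, 2.66 ± 0.69 and 1.96 ± 0.69. The highest PeriFibro and Fibro values after bleomycin, and the higher uninjured Fibro value, came from the 3 arrays named above as standing apart.

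The chemokines separated the populations in different ways. Ccl24, the eosinophil attractant that acts on Ccr3, was 4.34 and 4.53 in uninjured Peri, below background on both arrays, 4.99 and 5.75 in PeriFibro, and 5.15 and 5.17 in Fibro. At day 7 it was 7.30 and 7.92 in Peri, 5.99, 5.34 and 5.64 in PeriFibro, and 9.04, 8.48 and 10.59 in Fibro. The values overlapped in PeriFibro (log2 difference 0.29 ± 0.50), whereas Fibro was higher by 4.21 ± 0.50. Peri was at least 7.08-fold higher with the normalisation used here, but by only 0.685 on the log2 values deposited by the authors.

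Ccl17, the ligand of Ccr4 on T cells, was 5.04 and 4.93 in uninjured Peri, 6.61 and 7.90 in PeriFibro, and 9.33 and 9.67 in Fibro. After bleomycin the arrays read 7.78 and 9.13 in Peri, 9.27, 10.57 and 9.68 in PeriFibro, and 10.21, 12.18 and 12.40 in Fibro. Bleomycin arrays lay above uninjured arrays in each population, by 3.47 ± 0.72, 2.59 ± 0.66 and 2.09 ± 0.66 on the log2 scale. The uninjured Peri arrays lay close to the lowest detected level (mean 4.98 against 4.78). On the log2 values deposited by the authors the Peri difference was only 1.011. Of the receptors, Ccr4 did not pass the filter on low signal. Ccr3 was detected on at most 1 array of a group, and Ccr8, a receptor also described for Ccl17, was detected on both bleomycin Peri arrays (6.72 and 6.04) and on neither uninjured Peri array.

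Fabp5, an intracellular fatty acid carrier, had the least clear pattern. Its level was 4.31 (below background) and 4.93 in uninjured Peri, 5.10 and 4.74 (below background) in PeriFibro, and 6.23 and 8.87 in Fibro. On the bleomycin arrays it was 5.17 and 6.64 in Peri, 5.46, 5.78 and 7.88 in PeriFibro, and 6.79, 8.72 and 7.91 in Fibro. The log2 difference was 1.29 ± 0.96 in Peri, 1.45 ± 0.88 in PeriFibro and 0.26 ± 0.88 in Fibro, where the groups overlapped.

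**Figure D2:**
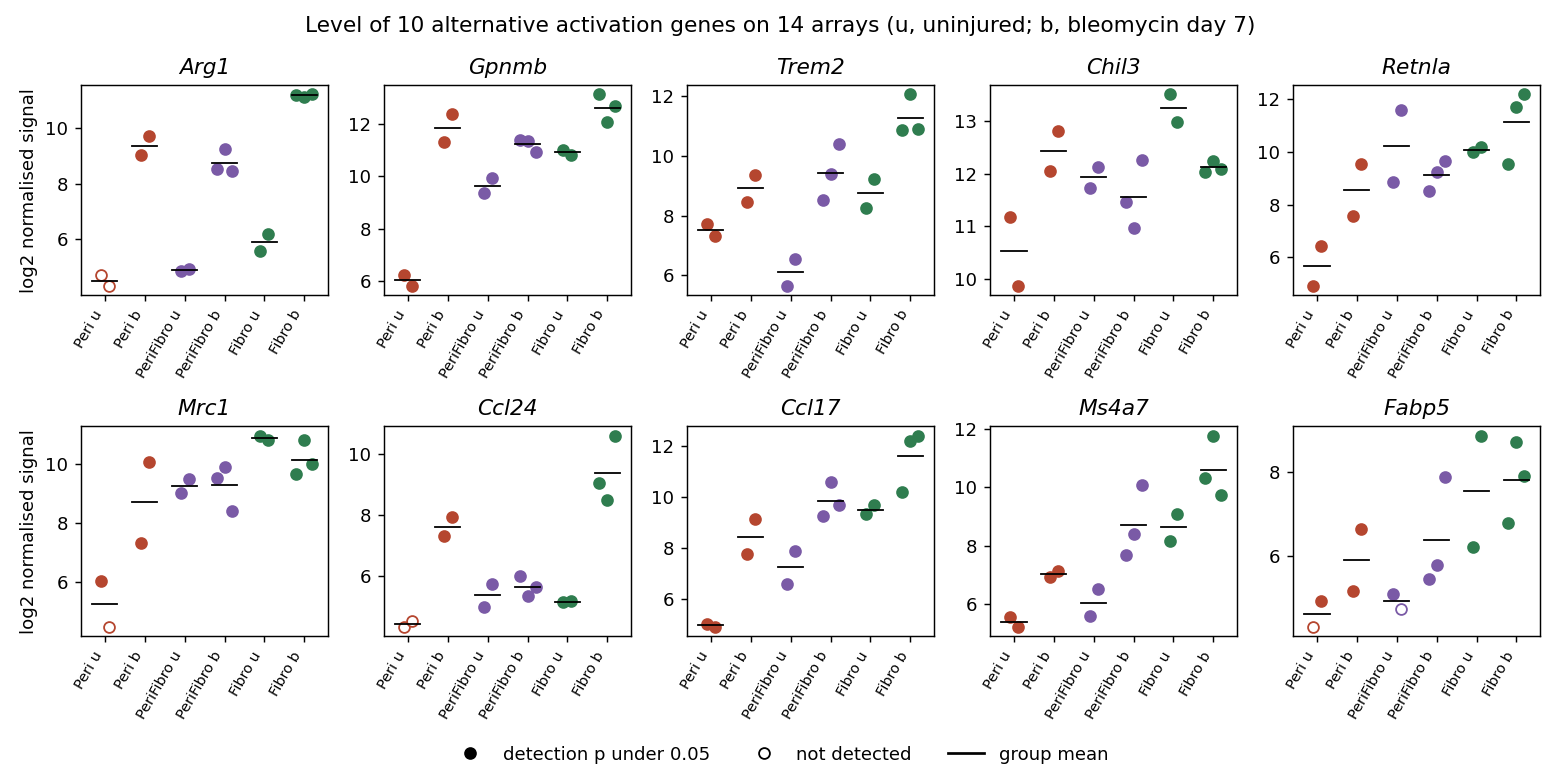
Log2 normalised signal (y axis) of each member on every array, by group (x axis; u, uninjured; b, bleomycin day 7), with open points for arrays on which the probe was not detected and a bar for the group mean. Uninjured Peri is the lowest group for every member except Trem2, and Arg1 stands between 8.44 and 11.19 on all bleomycin arrays.

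Counts of the bleomycin description follow, with no reading beyond the values, since this contrast chose the members. A gene was called at an adjusted p-value under 0.05 in limma and a change of at least 2-fold. In Peri 3 of 10 members were called higher (Arg1, Gpnmb and Ccl24; 0.506% of all genes), in PeriFibro 1 of 10 (Arg1; 0.113%) and in Fibro 3 of 10 (Arg1, Gpnmb and Ccl24; 0.571%). Without the 3 arrays that stand apart the PeriFibro count was 3 (Arg1, Trem2 and Ms4a7). These arrays were set apart in part through Trem2 and Ms4a7. The calls of these members without them thus follow partly from that choice, and nothing is read from them. The PeriFibro count was 2 (Arg1 and Trem2) when PeriFibro bleomycin replicate 1, Fibro bleomycin replicate 2 or either Fibro uninjured array was left out. Every bleomycin array lay above every uninjured array for 10 members in Peri, 6 in PeriFibro and 6 in Fibro, against 23.0%, 11.6% and 9.56% of all genes. The median log2 difference of the members was 3.02 in Peri, or 2.85 with Arg1 and Ccl24 at their bounds, 1.51 in PeriFibro and 1.83 in Fibro. The median of all genes lay between −0.03 and 0.03 in the same contrasts. On the log2 values deposited by the authors the member medians were 1.00 in Peri, 0.67 in PeriFibro and 1.51 in Fibro. The 3 contrasts use different arrays, but all 3 compare male with female mice by the labels.

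**Figure D3:**
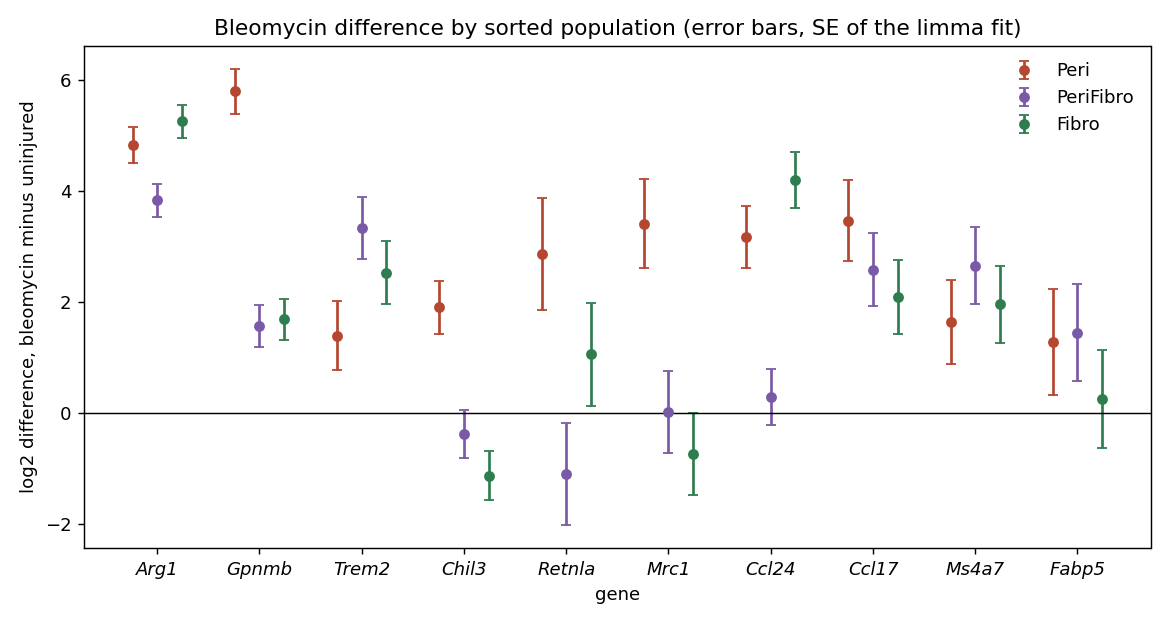
Log2 difference between bleomycin and uninjured arrays (y axis) for each member (x axis) in Peri, PeriFibro and Fibro, with error bars for the SE of the limma fit. Arg1 lies between 3.84 and 5.26, whereas Chil3 and Mrc1 are above 0 in Peri and below 0 in Fibro.

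The companion gene lists place the members among other macrophage programmes, again as a description. Of 13 interstitial macrophage genes, 4 were called higher in Peri, the complement genes C1qb (log2 difference 4.52 ± 0.55), C1qc (4.12 ± 0.58) and C1qa (3.55 ± 0.54) and the monocyte attractant Ccl7 (3.84 ± 0.58). In Fibro 3 of the 13 were called higher, Ccl2 (3.13 ± 0.66), Ccl7 (3.02 ± 0.53) and C1qb (2.26 ± 0.50), and in PeriFibro 0. The median of that list was 1.41 in Peri, −0.21 in PeriFibro and 1.69 in Fibro. With the deposited log2 values 0 of these genes were called in Peri and 1 in Fibro, with medians of 0.40 and 1.08.

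Among 14 other genes of alternative activation, Socs2, a feedback inhibitor of cytokine signalling, was called higher in Peri (2.03 ± 0.27) and Mgl2, a macrophage lectin, in Fibro (2.08 ± 0.39). Of 14 lipid-handling genes, Cd63, a lysosomal tetraspanin, was called in Peri (2.85 ± 0.49), and Mmp12, the macrophage elastase, in PeriFibro (2.96 ± 0.46) and Fibro (2.94 ± 0.46). Of 12 pan-macrophage genes only Aif1, an actin-binding protein of macrophages, was called, in Fibro (2.13 ± 0.44). The medians of the pan-macrophage list were 0.10 in Peri, 1.14 in PeriFibro and 1.20 in Fibro. Ccr8 was called higher in Peri. With the deposited log2 values the calls of Socs2, Cd63 and Ccr8 in Peri and of Mmp12 in PeriFibro were lost, and with scaling to a common median those of Cd63 and Ccr8 in Peri and Mgl2 in Fibro.

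No gene was called in any population among 11 classical activation genes, 12 genes of IL-4 and IL-13 signalling, 10 of arginine metabolism, 8 of alveolar macrophages and 8 of dendritic cells. The classical activation list had medians of 0.05, 0.56 and 1.43 in Peri, PeriFibro and Fibro. Il4 itself was detected on both uninjured Peri arrays (7.83 and 8.14) and both bleomycin Peri arrays (8.89 and 8.22). Among markers of other cells, the alveolar type 2 list fell in Fibro, with 6 of 7 genes called lower (1.03% of all genes were). The part of these cells in the member differences was not tested.

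The study compared the sorted populations before injury. The same uninjured arrays entered the bleomycin differences that chose the members, and a gene that is low in uninjured Peri has a larger difference after bleomycin there. The low uninjured Peri levels are thus partly fixed by the choice, and the member values below are a description. Against PeriFibro, 5 of 10 members were called lower in Peri (14.6% of all genes were called lower), and against Fibro 8 of 10 were called lower (12.8%). No member was called higher in either comparison, where 10.2% and 8.88% of all genes were. The member medians were −1.17 and −3.09, against −0.05 and −0.03 for all genes. With Arg1 and Ccl24 at their bounds the first median was −1.04 and the second was unchanged.

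For Mrc1 the log2 difference of Peri was −3.98 ± 0.80 from PeriFibro and −5.59 ± 0.80 from Fibro. For Retnla it was −4.55 ± 1.01 and −4.40 ± 1.01, and for Gpnmb −3.61 ± 0.41 and −4.88 ± 0.41. On all 3 genes the 2 Peri arrays lay below every array of the other uninjured populations.

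The chemokine Ccl17 differed by −2.27 ± 0.72 from PeriFibro and by −4.52 ± 0.72 from Fibro. On the log2 values deposited by the authors these Ccl17 differences were only −0.5 and −1.61. Chil3 differed by −1.41 ± 0.48 and −2.72 ± 0.48, and its probe ILMN_3117876 by −1.51 and −2.94. Against Fibro, Ms4a7 differed by −3.25 ± 0.76 and Fabp5 by −2.93 ± 0.96. Arg1 was at least 2.16-fold lower in Peri than in Fibro with the normalisation used here, although its probe ILMN_2775157 differed by only −0.25 ± 0.37. On the log2 values deposited by the authors the Arg1 difference was −0.201.

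Trem2 and Ccl24 were called in neither comparison. The log2 difference of Trem2 was 1.41 ± 0.62 between Peri and PeriFibro and −1.23 ± 0.62 between Peri and Fibro. Ccl24 was below background in Peri. The count against PeriFibro fell to 2 (Gpnmb and Mrc1) without PeriFibro uninjured replicate 2, and to 3 without either of the Peri uninjured arrays. The count against Fibro fell to 5 (Gpnmb, Chil3, Retnla, Mrc1 and Ccl17) without Peri uninjured replicate 2 or without Fibro uninjured replicate 2, and was 6 without the 3 arrays that stand apart.

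Between uninjured PeriFibro and Fibro 0 of 10 members were called (2.11% of all genes were called lower in PeriFibro). An unadjusted p-value under 0.05 in limma was found for 7 members, among them Trem2 at −2.64 ± 0.62, and for 1976 of all 12444 genes. This count is for orientation only, since these arrays entered the choice of members. The member median was −1.46, against 0.06 for all genes. For 8 members both PeriFibro arrays lay below both Fibro arrays. The share of all genes separated in this way was not counted, so nothing is read from that number. Trem2 alone was called without PeriFibro bleomycin replicate 1 and without Fibro bleomycin replicate 2. Trem2 and Fabp5 were called without Fibro uninjured replicate 1, and Trem2 and Ms4a7 without PeriFibro bleomycin replicate 3, although bleomycin arrays enter this comparison only through the shared estimate of spread, the filter and the normalisation. The order of the uninjured populations was Peri, PeriFibro, Fibro from low to high for 7 members by their means, of which 0 were called between PeriFibro and Fibro.

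Several genes of the pan-macrophage list were higher in uninjured Peri than in PeriFibro, as were the markers of other leukocytes given below. Relative to PeriFibro, 8 of 12 pan-macrophage genes were higher in Peri and 1 was lower, with a median of 2.33. Against Fibro 2 were higher in Peri and 1 was lower, with a median of 0.87, and with scaling to a common median 0 were higher. Between PeriFibro and Fibro 3 were lower in PeriFibro, with a median of −1.58, but 0 with scaling to a common median and 1 with the deposited log2 values. The fractalkine receptor Cx3cr1 was higher by 3.97 ± 0.52 (limma, adjusted p = 0.00016), the endotoxin co-receptor Cd14 by 3.73 ± 0.94 (adjusted p = 0.011) and the signalling adaptor Tyrobp by 3.42 ± 0.61 (adjusted p = 0.0013). Mertk, a receptor for dying cells, was the gene that was lower, with a log2 difference of −4.60 ± 0.51 (adjusted p = 4.9e-05).

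Relative to PeriFibro, 6 of 13 interstitial macrophage genes were lower in Peri and 1 was higher, with a median of −2.67, and against Fibro 7 were lower and 1 higher, with a median of −2.72. With the deposited log2 values the counts of lower genes were 2 and 5, with medians of −0.57 and −0.78. The higher gene was F13a1, a subunit of clotting factor XIII, in both comparisons, and its calls were lost with scaling to a common median. Lyve1, a hyaluronan receptor also found on lymphatic endothelium, differed from PeriFibro by −4.89 ± 0.75 (limma, adjusted p = 0.00045), C1qc by −3.84 ± 0.58 (adjusted p = 0.00043) and C1qb by −3.69 ± 0.55 (adjusted p = 0.00036). Of 8 alveolar macrophage genes, 2 were lower than in PeriFibro (Car4 and Krt79) and 6 were lower than in Fibro, with medians of −1.48 and −2.51. The count of 6 became 3 with scaling to a common median and 2 with the deposited log2 values. Car4 is also made by lung endothelium, and 6 of 7 endothelial genes had lower levels in Peri than PeriFibro.

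Of 11 classical activation genes, 4 were higher in uninjured Peri than in PeriFibro, Il1b (4.37 ± 0.61, limma, adjusted p = 0.00023), Irf5 (3.85 ± 0.39, adjusted p = 3.2e-05), Cd86 (2.78 ± 0.69, adjusted p = 0.0096) and Ptgs2 (1.27 ± 0.29, adjusted p = 0.0064), and 0 were lower. The count of 4 became 2 with scaling to a common median and 3 with the deposited log2 values. Arg2, the mitochondrial arginase, was higher in Peri by 4.97 ± 0.73 (adjusted p = 0.00034), whereas Arg1 was below background there. In the IL-4 and IL-13 list, Irf4 was higher by 4.53 ± 0.59 (adjusted p = 0.00015) and Il4 by 2.72 ± 0.47 (adjusted p = 0.00095), and the kinase Jak1 differed by −3.89 ± 0.48 (adjusted p = 9.6e-05).

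The 14 other alternative activation genes were split, with 2 higher in Peri than PeriFibro and 2 lower and a median of 0.56. The higher genes were Il1rn, the interleukin-1 receptor antagonist (3.10 ± 0.85, limma, adjusted p = 0.017), and Pdcd1lg2, a ligand of PD-1 (1.88 ± 0.27, adjusted p = 0.0003). The lower genes were Socs2 (−2.66 ± 0.27, adjusted p = 3.1e-05) and Chil4 (−1.53 ± 0.48, adjusted p = 0.032). Of the 14 lipid-handling genes, Lpl, which hydrolyses triglycerides of lipoproteins, differed by −3.54 ± 0.65 (adjusted p = 0.0016) and the tetraspanin Cd9 by −1.79 ± 0.48 (adjusted p = 0.015), whereas the lectin Lgals3 was higher by 1.41 ± 0.37 (adjusted p = 0.013).

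Markers of other leukocytes were high in the same Peri arrays. Relative to uninjured PeriFibro, all 6 pan-leukocyte, all 6 neutrophil, all 5 T and NK cell and all 3 B cell genes measured were called higher. The neutrophil list summed to between 15.41 and 15.96 in uninjured Peri and between 10.71 and 10.86 in uninjured PeriFibro on the log2 scale. In bleomycin Peri it summed to between 15.16 and 15.68. The part of these cells in the member levels was not tested.

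**Figure D4:**
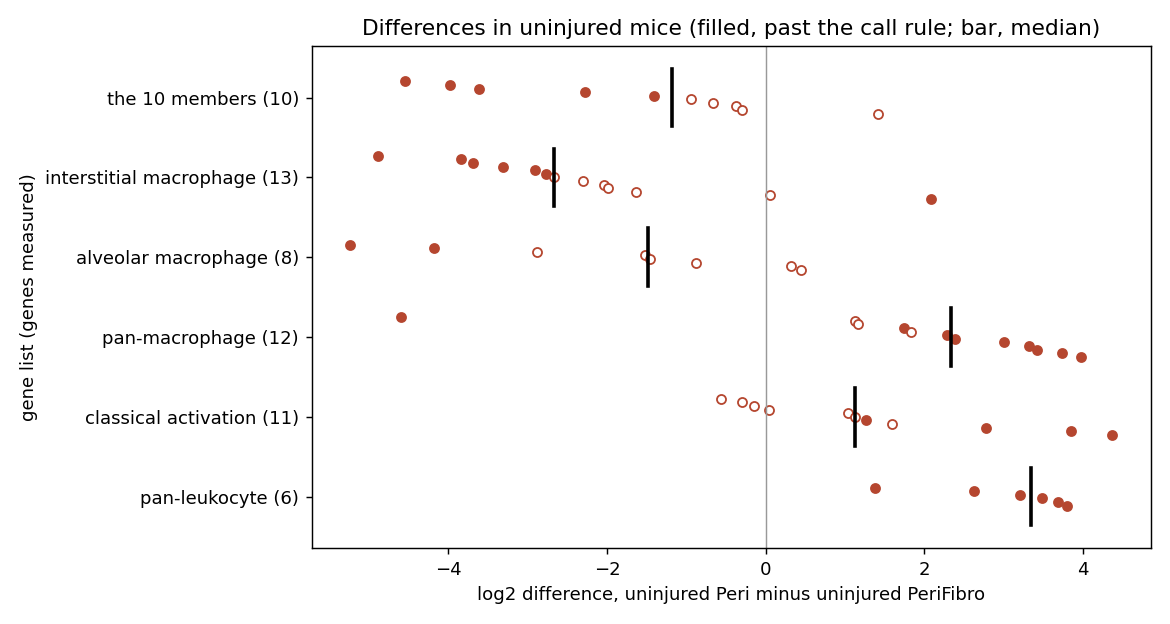
Log2 difference between uninjured Peri and uninjured PeriFibro (x axis) for the genes of 6 lists (y axis), with filled points for genes past the call rule and a bar for the median of each list. The members (median −1.17) and the interstitial macrophage genes (−2.67) lie mostly below 0, and the pan-macrophage (2.33) and pan-leukocyte (3.34) genes above it.

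At day 7 Fibro had the highest mean level of 9 members. For Chil3 the order was not settled, since its Peri mean (12.43) lay above Fibro (12.12) with overlapping arrays, whereas its other probes had means of 9.44 and 11.40 in Peri and of 9.66 and 11.47 in Fibro. The log2 difference between PeriFibro and Fibro was −2.42 ± 0.27 for Arg1, −3.72 ± 0.45 for Ccl24 and −1.40 ± 0.33 for Gpnmb. Peri lay above PeriFibro for Ccl24, by 1.95 ± 0.50, and the 2 groups of arrays did not overlap. Between Peri and Fibro it was −3.14 ± 0.66 for Ccl17, −3.57 ± 0.69 for Ms4a7 and −2.37 ± 0.57 for Trem2. These contrasts share their bleomycin arrays with the differences above and are given without p-values.

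Members resembled each other to different degrees over the 14 arrays, which share groups and populations. The highest correlations between members were those of Trem2 with Ms4a7 (r = 0.912) and of Ccl17 with Ms4a7 (r = 0.896), and the lowest was that of Arg1 with Chil3 (r = 0.212). The genes nearest to Arg1 were Sphk1 (0.955), AA467197 (0.932) and Mmp12 (0.923). Those nearest to Gpnmb were Spint1 (0.947), Lhfpl2 (0.944) and Sh3pxd2b (0.942).

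Those nearest to Trem2 were Car13 (0.971), Mmp12 (0.956) and Nme1 (0.947), and those nearest to Ms4a7 were Uap1l1 (0.949), Car13 (0.948) and Syngr1 (0.948). Ccl17 ran closest to the 3 complement genes C1qa (0.967), C1qc (0.954) and C1qb (0.952), whereas Ccl24 ran closest to Scin (0.929), Rsph4a (0.902) and Acox2 (0.888). After Chil4, Chil3 was nearest to Nceh1 (0.870) and Hacd3 (0.858). Retnla was nearest to Fcrls (0.904), Slc27a3 (0.878) and Dab2 (0.876), Mrc1 to Mt1 (0.944), Dab2 (0.934) and Angptl4 (0.928), and Fabp5 to Cox5a (0.958), Aoc1 (0.940) and Gcat (0.938).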

How the data were processed

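The non-normalised table deposited by the authors holds 1 signal intensity per probe and array, with a detection p-value that the authors deposited beside each intensity. By the labels and the study's methods, the log2 values that the authors deposited were variance-stabilised and quantile-normalised with lumi (version not given in the sources used here), and 2 outlier samples had been removed. Chip positions are not given in the sources used here, so no chip block was fitted.

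Intensities were background-corrected and quantile-normalised with neqc in limma 3.58.1 (R 4.3.3), with an offset of 16. Probes with a detection p-value under 0.05 on at least 2 arrays were kept (24445 of 45281). The kept probe with the highest mean represented each of 12444 genes, and 34885 probes carried 1 symbol. Of the 20 member probes 17 were kept. All 6 groups entered 1 limma fit (8 residual and 3.43 prior degrees of freedom), with two-sided tests and Benjamini-Hochberg adjustment over all genes. Fold bounds were measured from the lowest detected level of each array and hold only for this normalisation. The number of arrays limits the precision.

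The members, gene lists and call rules were chosen with earlier results of these data known. Named were all members with every probe, up to 4 called genes per companion list and comparison, and the 3 genes nearest to each member by Pearson correlation. The fit was tested on simulated data. Promoters came from RefSeq (GRCm38.p6) and figures were drawn with matplotlib.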

Additional observations from a re-analysis of the deposited data

Results flagged for a closer look

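Of the members, 2 had bleomycin differences of opposite sign in Peri and Fibro, with no overlap of arrays in either. The share of all genes with such a pattern was not counted, so nothing is read from this number. Chil3 had a log2 bleomycin difference of 1.907 in Peri and −1.124 in Fibro. The lack of overlap holds for its probe of highest mean signal. On its probe ILMN_3043036 the Fibro arrays overlapped, with bleomycin replicate 2 at 10.31 and uninjured replicate 1 at 10.06. For Mrc1 the log2 bleomycin differences were 3.412 in Peri and −0.732 in Fibro, where the arrays were separated by only 10.78 against 10.79. The difference between the populations was not tested, because these contrasts chose the members. The groups hold 2 or 3 arrays, too few for a check of single outlying arrays.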

How the results depend on the processing

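Member calls depended on the processing. Calls over all genes also changed between settings. The member counts under other settings are given without the matching share of all genes, so nothing is read from them beyond the counts. Calls of Trem2 and Ms4a7 without the 3 arrays that stand apart follow partly from how these arrays were chosen. After bleomycin, 3 members were called in Peri under the reported settings and 2 to 4 over arrays left out in turn. The PeriFibro count of 1 became 2 with a stricter detection filter, 0 in a fit of only the 2 groups compared, 3 without the 3 arrays that stand apart, and 1 to 2 over arrays left out in turn. The Fibro count of 3 became 1 with the deposited log2 values and 1 with only 2 groups, and was 2 to 3 over arrays left out.

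The count of 5 in uninjured Peri against PeriFibro became 3 without background correction, 3 with an offset of 50, 3 without the detection filter and 1 with the deposited values, and was 2 to 5 over arrays left out. The count of 8 against Fibro became 5 without background correction and 3 with the deposited values, and was 5 to 8 over arrays left out. The count of 0 between PeriFibro and Fibro became 1 with a stricter filter (Trem2), 1 with all probes singly (Chil3) and 1 without the 3 arrays (Ms4a7), and was 0 to 2 over arrays left out. For some differences that were not called, the sign turned when an array was left out. Fabp5 in uninjured Peri against PeriFibro ranged from −0.632 to 0.004, and in PeriFibro against Fibro Retnla ranged from −1.216 to 1.512 and Ccl24 from −0.178 to 0.579. After bleomycin Retnla ranged from −2.469 to 0.261, Mrc1 from −0.286 to 0.457 and Ccl24 from −0.093 to 0.677 in PeriFibro, and Fabp5 from −1.067 to 1.584 in Fibro. With the replicate block Ccl24 was −0.013 in PeriFibro and Fabp5 −0.146 in Fibro, and with scaling Chil3 in PeriFibro was 0.011. The cause was not tested.

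The arrays share replicate numbers between groups. Deviations of same-numbered uninjured and bleomycin Fibro arrays correlated at 0.611 for replicate 1 and 0.665 for replicate 2. Both Fibro replicate 2 arrays were set apart. The deviations of 2 uninjured arrays from their mean mirror each other, so these Fibro values are not independent. In the other comparisons the correlations were −0.195 to 0.255. The labels name no shared source, so the numbers were not taken as pairs. With the replicate block 1 member was called between uninjured PeriFibro and Fibro (Trem2), 4 in Peri after bleomycin and 2 in Fibro. With the Peri bleomycin numbers crossed, an alternative chosen after seeing the data, 3 members were called in Peri.

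Calls over all genes in Peri after bleomycin were 74 in the reported fit, 13 without background correction, 5 with the deposited values and 13 with only 2 groups. Scaling to a common median moved the median of all genes from 0.03 to 0.41 there and from −0.05 to −0.30 in uninjured Peri against PeriFibro. It changed the calls from 63 higher and 11 lower to 34 and 1 in the former, and from 1271 and 1813 to 668 and 1665 in the latter. In uninjured Peri against Fibro it changed them from 1105 and 1598 to 319 and 1097. Under that scaling 4 and 6 members were lower in uninjured Peri, and the pan-macrophage list had 6 genes higher and 1 lower than in PeriFibro.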
